A study of Homo sapiens with 2 samples.

Results

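The genes described here are 47 members of homologous recombination and DNA crosslink repair, chosen by gene symbol from a list of known pathway members, and all 47 were found among the 26255 symbols of the deposited tables. RNA-seq was available for 2 libraries of the established human line OVSAHO, derived from a high-grade serous ovarian cancer, with 1 library per group. In the perturbed culture expression of SMARCA2 was raised, which the genotype label calls stable, and SMARCA4 was knocked down; the submitters name these cells OVSAHO-A2-siA4. These are the alternative ATPases of the SWI/SNF chromatin remodelling complex. The control cells are named OVSAHO-Ctrl-siNC, and their genotype is given as WT. Both cultures had been kept in 25 µM carboplatin for 2 days, so each value below was measured under the drug and there was no untreated culture. Whether the numbers in the sample titles stand for clones is not said in the labels.

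Carboplatin forms platinum adducts on DNA, among them links between the strands that block replication. The Fanconi core complex and its E2 enzyme ubiquitinate the FANCD2-FANCI clamp at a stalled fork, structure-specific nucleases unhook the link, and the resulting break is trimmed to a single strand by end resection. BRCA1, PALB2 and BRCA2 then prepare that strand for pairing with an intact copy, the BCDX2 and CX3 complexes assist, and helicases and nucleases resolve the joined DNA. Loss of this pathway is a known source of platinum sensitivity in serous ovarian cancer, and OVSAHO has been catalogued as a line with loss of BRCA2, which was not examined here at the DNA level.

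Stretches upstream of the start site are shown for the members with the 2 highest and the 2 lowest log2 ratios after a pseudocount of 1 FPKM, BRCA1 and ERCC1 (higher in the perturbed library) and DCLRE1B and RECQL (lower). Each is the 250 bases before the start in RefSeq on GRCh38.p14, 5′ to 3′ on the gene's own strand. Capitals mark CCAAT, the box bound by the NF-Y factor, or its reverse complement ATTGG.

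BRCA1 (chr17:43125365-43125614, minus strand): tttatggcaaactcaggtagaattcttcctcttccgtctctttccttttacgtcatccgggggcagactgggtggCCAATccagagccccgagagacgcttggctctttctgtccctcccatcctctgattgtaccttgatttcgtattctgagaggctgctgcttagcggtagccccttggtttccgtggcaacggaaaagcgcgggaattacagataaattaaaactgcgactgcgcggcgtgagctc

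ERCC1 (chr19:45423529-45423778, minus strand): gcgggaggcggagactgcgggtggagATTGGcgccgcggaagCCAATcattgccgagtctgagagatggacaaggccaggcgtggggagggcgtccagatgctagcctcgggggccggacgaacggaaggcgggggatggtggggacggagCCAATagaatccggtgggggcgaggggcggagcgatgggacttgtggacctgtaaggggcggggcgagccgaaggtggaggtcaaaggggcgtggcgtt

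DCLRE1B (chr1:113905076-113905325, plus strand): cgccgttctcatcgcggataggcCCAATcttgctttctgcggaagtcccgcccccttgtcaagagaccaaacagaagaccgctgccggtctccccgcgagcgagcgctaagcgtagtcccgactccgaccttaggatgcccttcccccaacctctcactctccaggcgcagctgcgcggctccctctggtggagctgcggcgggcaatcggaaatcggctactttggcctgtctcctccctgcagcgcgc

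RECQL (chr12:21501636-21501885, minus strand): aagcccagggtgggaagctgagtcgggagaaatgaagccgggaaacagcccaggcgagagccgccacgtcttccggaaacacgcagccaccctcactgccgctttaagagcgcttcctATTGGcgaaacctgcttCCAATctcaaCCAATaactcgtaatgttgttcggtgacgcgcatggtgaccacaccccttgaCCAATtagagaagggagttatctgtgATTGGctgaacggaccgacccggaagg

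CCAAT or its complement was found 5 times upstream of RECQL, 3 times upstream of ERCC1, and once each upstream of BRCA1 and DCLRE1B, so it was present on both sides of the comparison. RefSeq windows of 300 bases (250 before and 50 after the start) were matched for 41 of the 47 members, and 1 window per gene was used, the one whose start lay near the most transcript starts in GENCODE 29, or the closest to one of them where windows tied. The windows of ERCC1 and BRCA1 each lie among several annotated starts. CCAAT was in 19 of the 41 windows (46.3%) and in 34.6% of all 35116 windows. The background counts every window rather than 1 chosen per gene, so the member and background shares of each motif come from windows chosen differently. The E2F motif TTTCCCGC was in 3 of the 41, those of XRCC2, FANCC and FANCD2 (7.32%), and in 1.63% of all windows, and the other E2F motif searched, TTTGGCGC, was in none of the 41 and in 0.652% of all. The cell cycle element TTTGAA was in 4 member windows (9.76%, against 15.2% of all) and its variant TTCGAA in 1, that of GEN1 (2.44% against 1.45%). The AP-1 motif TGANTCA was in 1, that of RECQL5 (2.44% against 7.71%). All motifs were searched on both strands, and a match is a description of the letters only.

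The tables hold FPKM, fragment numbers scaled by transcript length and library size, so levels of different genes can be compared per length. The depth read from the steps of low values was about 8850000 fragments in the perturbed library and 9050000 in the control, and for a 2 kb transcript 1 FPKM corresponded to about 15.9 fragments. The perturbed genes went the way the series text states: SMARCA2 was at 2.60 FPKM after the perturbation and at 0.205 FPKM in the control, and SMARCA4 at 4.49 and 27.9 FPKM. Of 10 serous ovarian epithelial markers, 9 were at 1 FPKM or more in a library, and MUC16 was at or near 0 in both. Of the fibroblast markers, 4 of 5 were listed at 0 in both libraries, and the leukocyte markers PTPRC and CD3E were listed at 0 in both, while CD68 was at 11.1 and 34.9 FPKM. With 1 library per group there is no replicate error, no p-value could be computed, and each difference is between these 2 libraries. A 95% counting interval (exact binomial, Clopper-Pearson, on approximate fragment numbers) is given with each fold, and it covers counting error only. Fewer cells expressing a gene and less RNA per cell cannot be told apart.

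Among the 47 genes, 41 reached 1 FPKM in either library and 6 were below it in both. The rule for a call was this minimum together with a log2 ratio, taken as perturbed over control after adding a pseudocount of 1 FPKM to each value, of 1 or above (higher) or of -1 or below (lower). By this rule 2 of the 41 genes were higher, BRCA1 and ERCC1 (4.88%, against 7.85% of the 11785 genes that passed the minimum), and none was lower (against 7.61%). The share called was below the background in both directions. Within 1.5-fold lay 29 of the 41 genes (70.7%), against 59.6% of all genes. The median log2 ratio was -0.10 over the 41 and -0.04 over all 47 genes, beside -0.06 over all genes that passed the minimum. Of the 41, 16 had a ratio above 0 and 25 below 0, beside 5484 above and 6301 below among all genes past the minimum. The members' split depends on the scaling: scaling both libraries to 1 sum gave 21 above and 21 below, against 20 and 21 centred on the median ratio, and 21 and 20 centred on a trimmed mean.

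The counting intervals separate smaller differences. Among the 41 genes the interval lay above 1 for 13 (31.7%) and below 1 for 18 (43.9%), against 31.6% and 38.7% of all genes past the minimum with a known transcript length. Over all 47 genes, the interval lay above 1 for 14, below 1 for 18 and held 1 for 15. These shares were near the background, so the members taken as a list did not stand apart by number. All intervals were computed on the deposited scaling and were not recomputed under the other scalings. Whether an interval with an end close to 1 excludes 1 may therefore depend on the scaling. The counts for each role group in the following paragraphs are of 2 to 9 genes, are descriptions without a test, and are to be read beside the same 31.6% above and 38.7% below. Those shares are over genes past the minimum, while the group counts include members under it. Where a group has such members, its count past the minimum is given too.

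**Figure D1:**
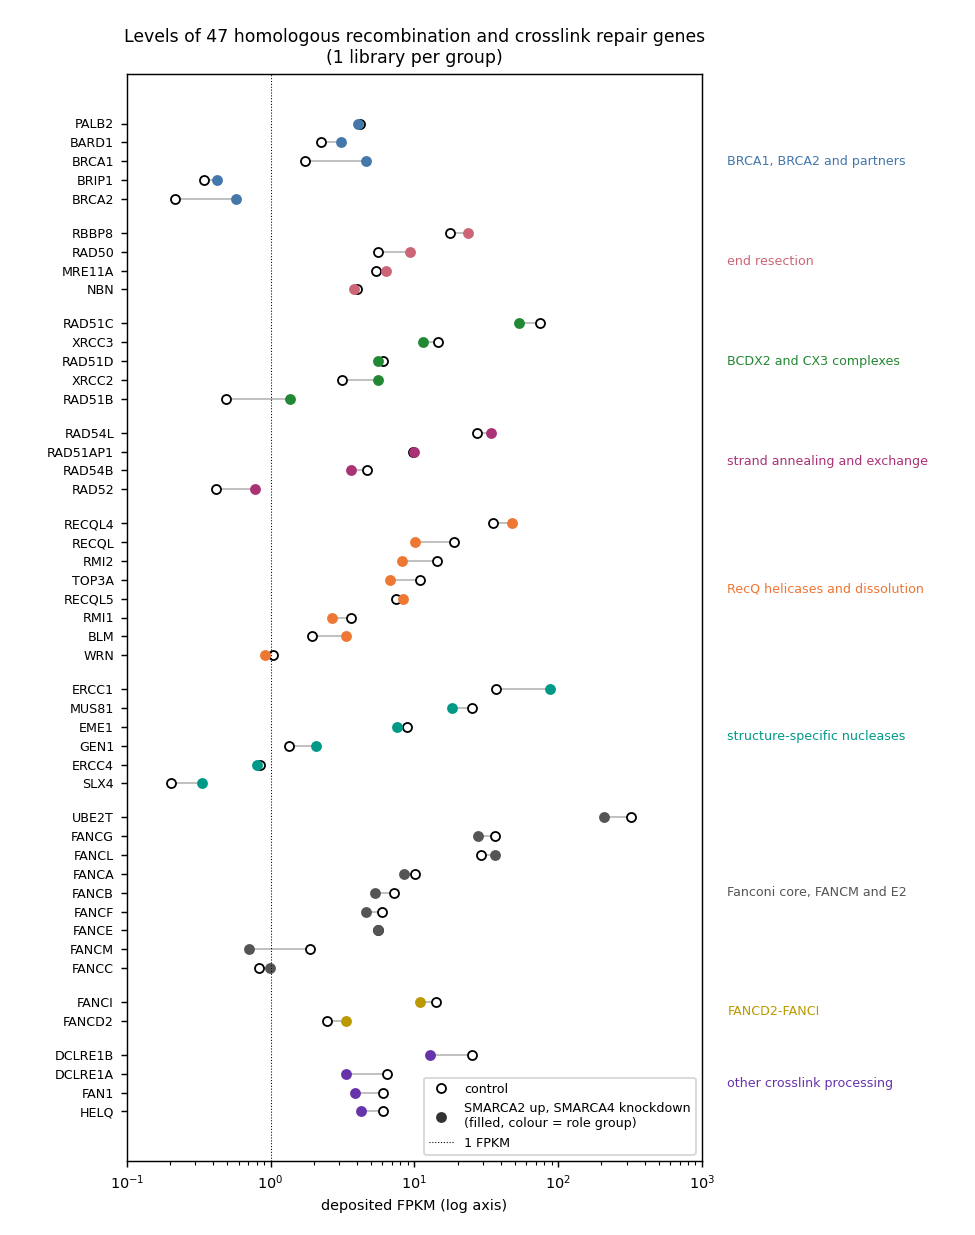
FPKM of each gene on a log axis in the control library (open circles) and the perturbed library (filled circles), 1 library per group, ordered by role and by control level. Levels span from SLX4 at 0.202 FPKM to UBE2T at 323 FPKM in the control, and the pairs of points lie close together except for genes such as ERCC1, BRCA1 and FANCM.

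Levels differed far more between the genes than between the libraries. UBE2T, the E2 enzyme of the Fanconi core complex, was the most abundant member at 210 FPKM after the perturbation and at 323 FPKM in the control, and made up 28.96% and 38.9% of the summed FPKM of the 47 genes. SLX4, the scaffold that holds several nucleases, was the least abundant at 0.334 and 0.202 FPKM. The control level of UBE2T was 1595 times that of SLX4. Across the 47 genes, which share both libraries, the log2 levels of the perturbed and the control library had a Pearson correlation of 0.96. Of the 47 genes, 13 were at 10 FPKM or more in both libraries.

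Of BRCA1, BRCA2 and their direct partners, 3 of 5 had an interval above 1 (2 of the 3 past the minimum) and none below. BRCA1, the ubiquitin ligase that promotes resection, was at 4.62 FPKM after the perturbation and at 1.74 FPKM in the control, 2.65-fold higher (2.05 to 3.42), on about 225 and 86.6 fragments. Its obligate partner BARD1 was at 3.08 and 2.25 FPKM, 1.37-fold higher with an interval of 1.024 to 1.87, whose lower end is close to 1. The BRCA1 and BARD1 intervals did not overlap, so BRCA1 went from 0.775 times the BARD1 level in the control to 1.501 times in the perturbed library. BRCA2, which acts on single-stranded DNA after resection, was at 0.575 and 0.217 FPKM, under the minimum in both libraries, with a ratio of 2.65 (1.59 to 4.66) on about 54.9 and 21.2 fragments. PALB2, the bridge between BRCA1 and BRCA2, was at 4.04 and 4.18 FPKM, and the helicase BRIP1 at 0.425 and 0.347 FPKM, both with intervals that held 1. BRCA1 lost its call once trends with level, GC content and transcript length were taken out, at a log2 ratio of 0.85, and with a pseudocount of 5 FPKM, with 0.51.

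End resection genes had 2 of 4 members with an interval above 1 and none below. RAD50, the ATPase of the MRN complex that senses broken ends, was at 9.26 FPKM after the perturbation and at 5.61 FPKM in the control, 1.65-fold higher (1.46 to 1.87). Its partners in the complex were closer to equal, with the nuclease MRE11A at 6.31 and 5.43 FPKM (0.899 to 1.502) and the adaptor NBN at 3.82 and 4.02 FPKM (0.753 to 1.20). RAD50 and NBN had intervals that did not overlap. With trends on level, GC content and length removed, the log2 ratio was 0.38 for RAD50 (0.63 before) and 0.35 for MRE11A (0.18 before). RAD50 and MRE11A were then nearly alike, while NBN was at 0.02 (-0.06 before). RBBP8, which encodes the resection factor CtIP, was at 23.7 and 17.7 FPKM, 1.34-fold higher (1.19 to 1.51).

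The subunits of the BCDX2 and CX3 complexes, which are paralogs of each other and assist strand pairing, went both ways. XRCC2 was at 5.59 FPKM after the perturbation and at 3.12 FPKM in the control, 1.79-fold higher (1.35 to 2.38). RAD51B was at 1.37 and 0.488 FPKM, a ratio of 2.81 with a wide interval of 1.047 to 7.44, since the control value rested on about 6.5 fragments, the fewest of any member. RAD51C, the most abundant paralog and a part of both, was at 53.4 and 74.2 FPKM, 1.39-fold lower (1.22 to 1.58), and XRCC3 was at 11.4 and 14.7 FPKM, 1.29-fold lower (1.08 to 1.53). RAD51D was at 5.58 and 6.06 FPKM, with an interval that held 1. The abundant paralogs were thus the lower ones and the scarcer ones, RAD51B and XRCC2, the higher ones. Ratios of all genes went the same way with level, with a median log2 ratio of 0.14 at a mean of 1 to 5 FPKM and -0.22 at 10 to 50 FPKM. With trends on level, GC content and length removed, the log2 ratio was -0.13 for RAD51C (-0.47 before) and -0.29 for XRCC3 (-0.34 before). It was 0.55 for RAD51B (0.67 before) and 0.72 for XRCC2 (0.68 before), so these 4 genes kept their signs.

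Of the strand annealing and exchange factors, 1 of 4 had an interval above 1 (1 of the 3 past the minimum) and none below. The motor protein RAD54L was at 34.3 FPKM after the perturbation and at 27.1 FPKM in the control, 1.26-fold higher (1.13 to 1.41). Its paralog RAD54B was at 3.60 and 4.71 FPKM, the strand pairing factor RAD51AP1 at 9.90 and 9.83 FPKM, and the annealing protein RAD52 at 0.774 and 0.417 FPKM. All 3 had intervals that held 1, and RAD52 was under the minimum in both libraries. The median log2 ratio of the 3 genes past the minimum was 0.0094, and 0.43 with trends removed. RAD51AP1 went from 0.0094 to 0.43 and RAD54L from 0.33 to 0.55 in that setting, and RAD54B changed sign, from -0.31 to 0.12.

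The RecQ helicases and the complex that dissolves double Holliday junctions had 2 members with an interval above 1 and 4 below. BLM, the helicase of the dissolution complex, was at 3.34 FPKM after the perturbation and at 1.95 FPKM in the control, 1.71-fold higher (1.24 to 2.33). Its 3 partners were lower instead. The topoisomerase TOP3A was at 6.74 and 11.0 FPKM, 1.63-fold lower (1.38 to 1.93), and the small subunit RMI2 at 8.24 and 14.5 FPKM, 1.76-fold lower (1.21 to 2.60). RMI1 was at 2.67 and 3.62 FPKM, 1.35-fold lower with an interval of 1.01 to 1.86 that nearly reached 1. TOP3A therefore went from 5.63 times the BLM level in the control to 2.02 times in the perturbed library.

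The other RecQ helicases also went apart. RECQL4, which also acts in replication initiation, was at 47.5 FPKM after the perturbation and at 35.15 FPKM in the control, 1.35-fold higher (1.25 to 1.46). RECQL, known as RECQ1, was at 10.1 and 18.99 FPKM, 1.89-fold lower (1.64 to 2.17). RECQL5 was at 8.39 and 7.45 FPKM and the Werner syndrome helicase WRN at 0.916 and 1.035 FPKM, both with intervals that held 1.

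ERCC1 had the highest log2 ratio of the 47 genes with the pseudocount. It encodes the non-catalytic subunit of the nuclease that unhooks crosslinks, and it was at 87.4 FPKM after the perturbation and at 36.7 FPKM in the control, 2.38-fold higher (2.103 to 2.70). Its catalytic partner ERCC4, also called XPF, was at 0.808 and 0.842 FPKM, with an interval of 0.631 to 1.46. The ERCC1 level was 43.6 times that of ERCC4 in the control and 108 times in the perturbed library. ERCC1 kept its 2-fold call under each other scaling, filter and pseudocount and with trends removed, with log2 ratios from 1.15 to 1.504.

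The remaining structure-specific nucleases were nearer to equal. Of the 4 genes of this group past the minimum, with ERCC1, 2 had an interval above 1 and 1 below. MUS81 was at 18.2 FPKM after the perturbation and at 25.0 FPKM in the control, 1.37-fold lower (1.19 to 1.58), and its partner EME1 at 7.58 and 8.93 FPKM with an interval of 0.677 to 1.07. The Holliday junction resolvase GEN1 was at 2.08 and 1.34 FPKM, 1.55-fold higher (1.14 to 2.09). SLX4, given above, had an interval of 0.789 to 3.59.

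**Figure D2:**
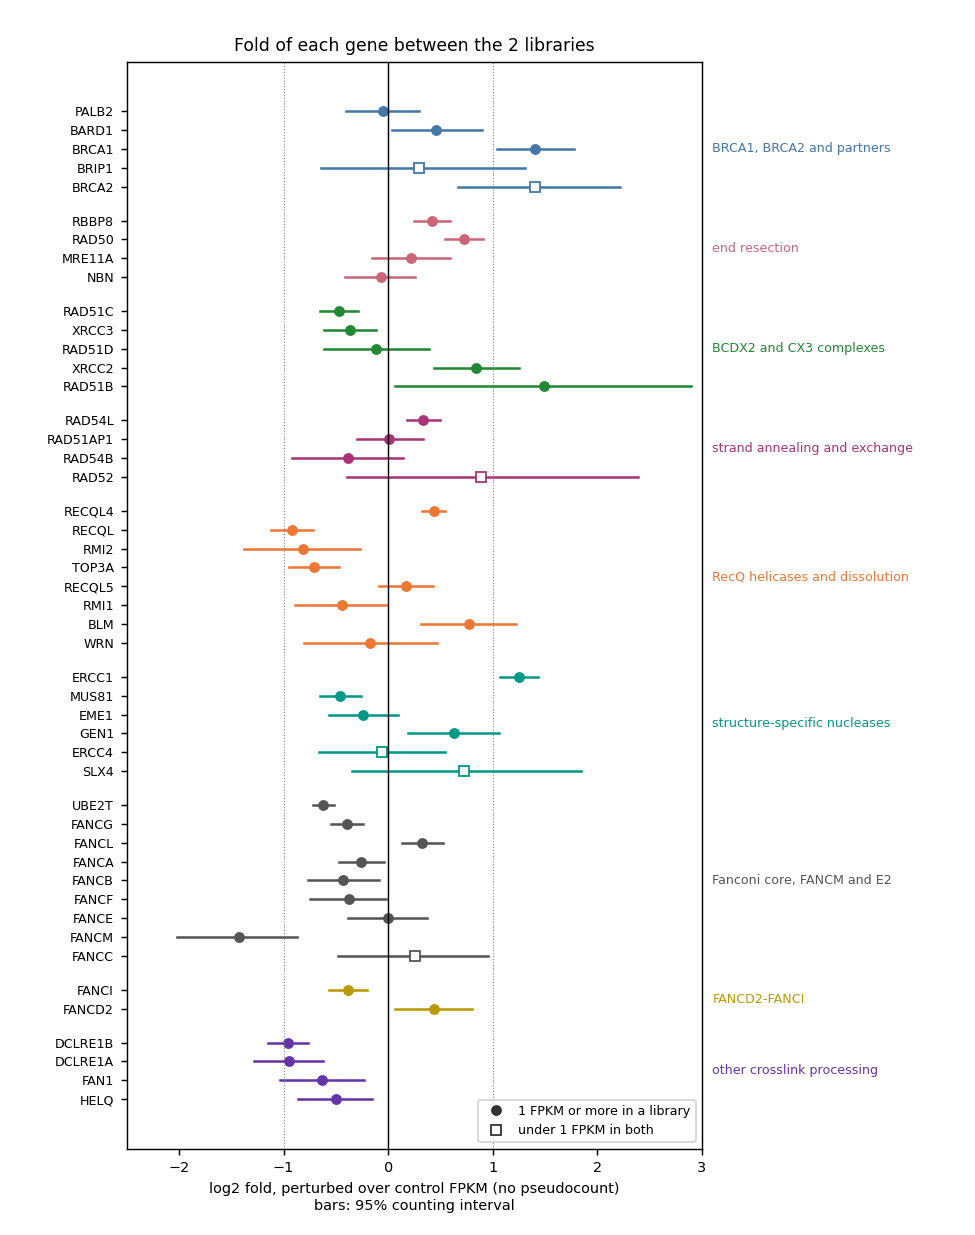
Log2 fold of each gene, perturbed over control FPKM without a pseudocount, with bars for the 95% counting interval. Open squares mark the 6 genes under 1 FPKM in both libraries. All 4 other crosslink processing genes lie left of 0, while RAD51B, BRCA1, BRCA2 and ERCC1 lie right of the dotted line at 1 and FANCM lies left of the one at -1.

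Genes of the Fanconi core complex were mostly lower in the perturbed library. Of the 9 members with FANCM and UBE2T, 6 had an interval below 1, 1 had one above, and 2 held 1. Of the 8 past the minimum, 6 were below, 1 above and 1 held 1. The upper ends for FANCF, FANCA and FANCB were at 0.988, 0.970 and 0.938 of the control level, so these intervals may depend on the scaling. UBE2T was 1.54-fold lower (1.44 to 1.65) at the levels given above. FANCG was at 27.7 FPKM after the perturbation and at 36.5 FPKM in the control, FANCA at 8.505 and 10.2 FPKM, FANCB at 5.35 and 7.23 FPKM, and FANCF at 4.61 and 5.97 FPKM, each 1.19-fold to 1.35-fold lower. The exception was FANCL, the ubiquitin ligase subunit itself, at 36.4 and 29.05 FPKM, 1.25-fold higher (1.09 to 1.43). FANCE was at 5.56 and 5.58 FPKM and FANCC at 0.990 and 0.831 FPKM, without a difference beyond counting error. The median log2 ratio of the 8 genes past the minimum was -0.34, and -0.22 with trends removed. In that setting UBE2T went from -0.62 to -0.32, FANCG from -0.38 to -0.18 and FANCB from -0.37 to -0.10. FANCL went from 0.32 to 0.70.

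FANCM, the translocase that brings the core complex to a stalled fork, had the lowest plain ratio of the 47 genes. It was at 0.704 FPKM after the perturbation and at 1.89 FPKM in the control, 2.69-fold lower (1.84 to 4.04), on about 37.2 and 102 fragments. With the pseudocount of 1 FPKM its log2 ratio was -0.76, short of the rule. It was past the rule at -1.31 with a pseudocount of 0.1 FPKM and at -1.001 with trends removed.

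The targets of the core complex split. FANCD2 was at 3.36 FPKM after the perturbation and at 2.48 FPKM in the control, 1.36-fold higher (1.049 to 1.74). FANCI, with which it forms the clamp, was at 10.9 and 14.2 FPKM, 1.30-fold lower (1.15 to 1.48). The intervals did not overlap, and the FANCI level went from 5.74 times that of FANCD2 in the control to 3.25 times in the perturbed library.

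All 4 genes of the other crosslink processing group were lower, each with an interval below 1, although none passed the 2-fold rule. DCLRE1B, the telomere and crosslink nuclease Apollo, was at 12.9 FPKM after the perturbation and at 25.1 FPKM in the control, 1.95-fold lower (1.71 to 2.22), and had the lowest log2 ratio with the pseudocount, -0.91. DCLRE1A, the nuclease SNM1A that digests past a crosslink, was at 3.36 and 6.49 FPKM, 1.93-fold lower (1.55 to 2.43). FAN1, a nuclease recruited by ubiquitinated FANCD2, was at 3.90 and 6.06 FPKM, 1.55-fold lower (1.18 to 2.04), and the helicase HELQ was at 4.25 and 6.02 FPKM, 1.42-fold lower (1.12 to 1.82). The group median log2 ratio was -0.65, and -0.53 with trends removed, but a group of 4 genes carries no test here.

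Ratios in these libraries went with transcript length, which was read from GENCODE 29. Over all genes past the minimum, the median log2 ratio was -0.14 for transcripts of 300 to 2000 bases and 0.41 for those of 6000 to 12000 bases, and the share called higher was 5.86% and 15.7%. Among the 47 genes the medians in these ranges were -0.21 (8 genes) and 0.15 (7 genes). Only 3 of these 7 long genes passed the minimum, and the pseudocount draws the ratios of the others toward 0. The 0.15 is therefore not of the same kind of set as the 0.41. The correlation of log2 ratio with log2 length was 0.18 across the 47 genes and 0.16 across all genes past the minimum. BRCA1 (5693 bases), RAD50 (8306 bases) and BRCA2 (10984 bases) are long, while ERCC1 (1278 bases) is short and FANCM (6167 bases) is long and low. The part of length in the single differences was not tested beyond the values with trends removed.

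**Figure D3:**
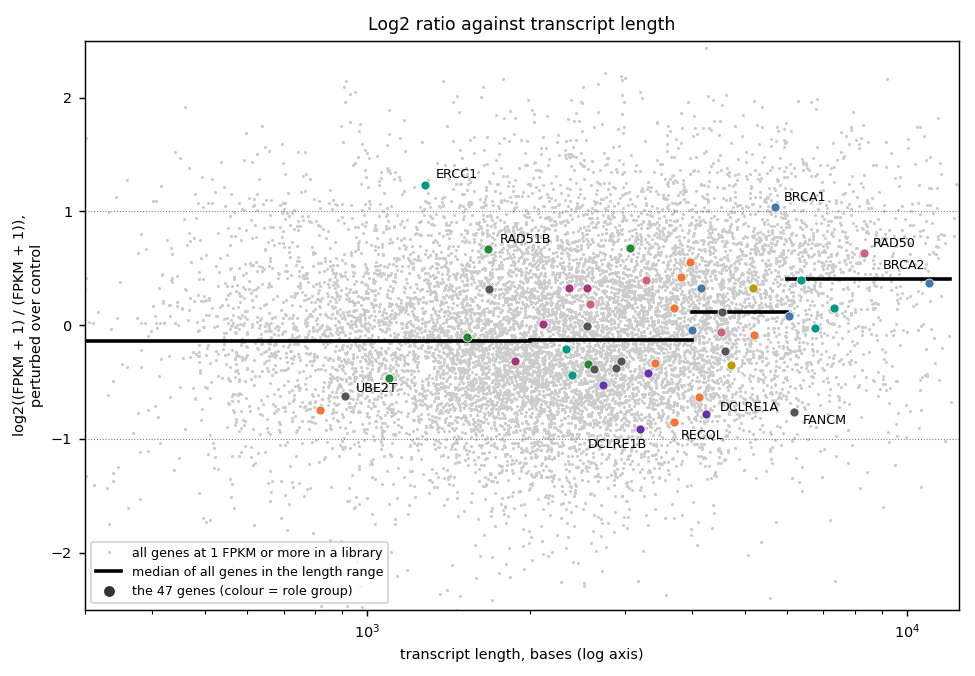
Log2 ratio with a pseudocount of 1 FPKM against transcript length on a log axis, for the 47 genes (coloured) and all genes past the minimum (grey; those beyond 2.5 in size or outside the length range are not drawn). Black lines are medians of all genes within a length range and go from -0.14 for the shortest to 0.41 for the longest transcripts.

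Other genes of the pathway, in lists apart from the 47, had 1 higher and none lower among 37 of 41 that passed the minimum and a median of -0.01. The one past the rule was DMC1, the meiotic recombinase, at 1.87 FPKM after the perturbation and at 0.117 FPKM in the control, a ratio of 15.9 with an interval of 4.03 to 137, since the control value rested on about 2 fragments. The single-strand binding and resection list (RPA1, RPA2, RPA3, EXO1, DNA2 and CTC1) had 6 of 6 genes with an interval below 1, against 38.7% of all genes, and a median of -0.60 (-0.50 with trends removed). RPA2, a subunit of the single-strand binding protein RPA, was its most abundant gene at 206 and 388 FPKM, followed by RPA3 at 47.5 and 60.0 FPKM. Of 3 genes in the damage kinase list, none passed the rule, although ATR and ATM had intervals above 1. ATR was at 2.94 and 1.18 FPKM, with an interval of 1.93 to 3.25 for the fold. Its log2 ratio was 0.86, and 0.47 with trends removed. ATM was at 0.732 and 0.290 FPKM, under the minimum in both libraries, 2.52-fold higher (1.68 to 3.88). ATRIP was the most abundant of the list at 8.33 and 7.25 FPKM, with an interval that held 1.

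The BRCA1-A complex and break ubiquitin genes had none past the rule among 9, against 7.85% higher and 7.61% lower of all genes, with a median of 0.16. Their interval lay above 1 for 5, below 1 for 1 and held 1 for 3, against 31.6% above and 38.7% below. BABAM1 was at 302 and 364 FPKM and the histone gene H2AFX at 65.3 and 58.2 FPKM. Resection antagonists had none of 4 (2 intervals above 1 and 1 below), with MAD2L2 at 378 and 443 FPKM and TP53BP1 at 6.85 and 5.75 FPKM. Fanconi accessory genes had none among the 7 of 10 past the minimum, with STRA13 at 599 and 680 FPKM and FAAP20 at 165 and 111 FPKM. Among those of them with a known transcript length, 1 interval lay above 1, 3 lay below and 1 held 1. The strand exchange helper list went mostly the other way, with 7 of 9 ratios above 0 and a median of 0.43. Among all genes past the minimum, 5484 ratios were above 0 and 6301 below. With trends removed the median was 0.69, but over only the 7 genes with a known transcript length, so these medians are of different sets. Of the 7 helper genes with a known transcript length, 4 had an interval above 1, against 31.6% of all genes, 1 had one below, and 2 held 1. MCM8, a helicase, was at 4.33 and 1.83 FPKM, 2.36-fold higher (1.71 to 3.28), and its partner MCM9 at 2.02 and 0.802 FPKM, 2.51-fold higher (1.399 to 4.89). In this list SHFM1, which encodes the BRCA2 partner DSS1, was the most abundant at 1904 and 1411 FPKM, followed by SWI5 at 138 and 134 FPKM.

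Many recombination genes are expressed with the cell cycle, so a list of 17 S-phase genes was set beside them. It had 13 genes with a ratio below 0 and 4 above, beside 6301 below and 5484 above among all genes past the minimum. The interval lay below 1 for 13 and above 1 for 3, against 38.7% and 31.6% of all genes. The median was -0.51 (-0.25 with trends removed). In this list 1 gene was past the rule (7.61% of all genes were lower), the cyclin CCNE2. It was at 11.1 FPKM after the perturbation and at 39.2 FPKM in the control. The most abundant, PCNA and RRM2, had 147 and 265 FPKM (PCNA) and 145 and 197 FPKM (RRM2). The 41 members past the minimum had a median of -0.10 (-0.072 with trends removed), and whether their levels went with the share of cells in S phase was not tested.

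**Figure D4:**
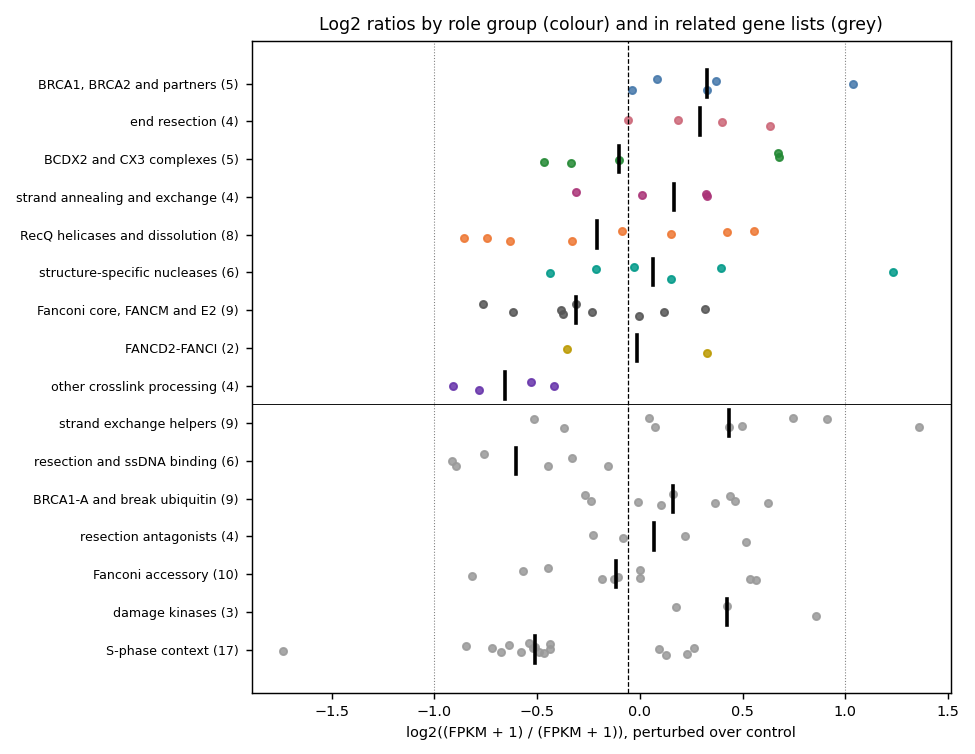
Log2 ratio of every gene with a pseudocount of 1 FPKM, by role group (coloured, 47 genes) and in the related lists (grey), with the median of each as a black bar. The dashed line is the median of all genes past the minimum, -0.06. The BRCA1 and BRCA2 group has a median of 0.33, the Fanconi core group -0.31 and the other crosslink processing group -0.65.

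Since the library kit does not mark strand, genes that share exonic bases with a neighbour cannot be fully told apart from it. In GENCODE 29, 16 of the 47 genes shared some exonic bases with another measured gene, and 6 shared 20% or more. ERCC1 shared 37.4% of its exonic bases with CD3EAP on the opposite strand. CD3EAP was listed at 2.41 FPKM after the perturbation and at 2.33 FPKM in the control. How fragments on shared bases were divided between neighbours was not examined, here or for the genes that follow. RECQL shared 42.3% with PYROXD1 (1.67 and 1.07 FPKM), XRCC3 33.5% with KLC1 (20.1 and 20.8 FPKM), FANCL 26.6% with VRK2 (5.40 and 7.82 FPKM), and FANCA 21.6% with ZNF276 (1.87 and 0.900 FPKM). RAD54B shared 63.3% with FSBP on its own strand, which was at or near 0 in both libraries. BRCA1 shared none, and NBR2, which starts next to BRCA1 on the opposite strand, was at 2.42 and 3.51 FPKM.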

How the data were processed

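RNA was measured in 2 OVSAHO libraries, 1 per group, grouped by the genotype labels. SMART-Seq HT cDNA went into Nextera XT libraries, per the labels' protocols. The authors deposited 1 FPKM value per gene symbol, per the file headers. Build hg19 and the tools Cuffdiff 2.2.1, TopHat2 2.1.1, SAMtools 0.1.18 and Bowtie2 2.2.8 are named in the submitters' processing notes. Not given in the sources used here are the annotation, the filters, the scaling between libraries and the treatment of multi-mapping reads.

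Python 3.11.15, NumPy 2.4.6, pandas 2.3.3 and SciPy 1.17.1 were used. The FPKM worth of 1 fragment was read from low values: of 1129 genes above 0 and under 0.3 FPKM in both libraries, 78.7% had a ratio of whole fragments (1 to 8) within 0.002 on the log2 scale. Depth and a shortening of 200 bases were chosen so that most single-transcript genes lay at 1 fragment. Fragment numbers used the median length of GENCODE 29 transcripts matched to RefSeq, of at least 300 bases, and 95% intervals are Clopper-Pearson. GENCODE 29 is on GRCh38, another build, so only names, lengths, base composition and overlaps between genes were used from it, and promoters carry their own build. The steps were tested on simulated data. Folds are plain FPKM ratios, and log2 ratios use a pseudocount of 1 FPKM, which understates changes of low genes. Trends were cubic, in log2 length, GC content and mean log2 level. The alternatives covered pseudocount, scaling, filter, rule of size, trends, gene overlaps and transcript length.

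Every member is named, and of the other lists the genes past the rule and the 2 most abundant. Members, lists and motifs were chosen with earlier results of these data known. RPA genes, MCM8, MCM9, ATM and marker genes beyond that rule were chosen after their values were seen. No replicates exist, so no test was made. A gene of the strand exchange helper list is not reported here.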

Additional observations from a re-analysis of the deposited data

How the results depend on the processing

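No paired analysis was possible because each group had 1 library, and leaving out a library was not possible either. Among the 47 genes, BRCA1 and ERCC1 were the higher calls, and none was lower, with scaling to a common sum, either centring, no filter, and 1 FPKM required in both libraries. The number of higher calls was 3 with a pseudocount of 0.1 FPKM (RAD51B added), 1 with 5 FPKM or with 5 FPKM required in a library (ERCC1), 1 with trends removed (ERCC1), 5 with a 1.5-fold rule and 0 with a 4-fold rule. It was 1 (BRCA1) without the 6 genes that share 20% or more of their exonic bases, an alternative chosen after seeing the data. Lower calls were 1 with a pseudocount of 0.1 FPKM and with trends removed (FANCM), and 7 with the 1.5-fold rule. The members' median of -0.10 was -0.00075 with FPKM scaled to a common sum, 0.0011 centred on a trimmed mean and -0.31 among the 29 genes at 5 FPKM or more in a library. With the longest transcript, also chosen after seeing the data, 14 intervals again lay above 1 and 18 below. A greater length raises both fragment numbers and leaves the fold unchanged. This setting could therefore add to these numbers but, apart from rounding, not lower them.

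Over all genes, 925 were higher and 897 lower. Higher genes numbered 1630 with a pseudocount of 0.1 FPKM, 219 with 5 FPKM (380 lower), 546 with 5 FPKM required in a library, 557 with 1 FPKM in both, 2253 at 1.5-fold (2505 lower) and 71 at 4-fold (84 lower). The median of -0.06 became 0.076 scaled, 0.045 with the trimmed mean and -0.17 at 5 FPKM in a library. The higher share of called genes went from 50.8% to 64.7% scaled, 62.9% centred on the median and 63.4% on the trimmed mean. Of the 47 genes, 21 were above 0 and 20 below 0 in each setting that gave a value, and 6 took both signs: PALB2, RAD51D, RAD54B, NBN, WRN and FANCE. BRCA2, RAD52, SLX4, BRIP1 and ERCC4 had a value in 2 settings only, with the same ratio in both. The signs of these genes could therefore not change, and their place in those counts says nothing of stability. The causes were not tested. Depth limits RAD51B, RAD52, SLX4 and BRIP1 most.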
